A study of Mus musculus with 16 samples.

Results

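The transcripts of 40 genes of ribosome biogenesis and the nucleolus were followed in small-intestinal crypts and organoids of mice that lack Cul4b, which encodes a scaffold of cullin-RING ubiquitin ligases. The genes were taken by name from a list, and each had 1 row in all 3 count tables, which share 52525 genes. The list falls into 7 role groups, from RNA polymerase I to the assembly of the large subunit. In each experiment, all 40 genes had enough reads to be tested.

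RNA was sequenced in 3 experiments, all on the C57BL/6 background. The first set 4 libraries of WT crypts against 4 of KOIEC crypts, from mice whose floxed Cul4b was deleted by pVillin-Cre (genotype pVillin-Cre; Cul4b fn/Y), with Cul4b fn/Y mice as WT. The second set 2 WT against 2 KOIEC libraries of organoids, which are epithelial cultures grown from crypts in Matrigel. The third set 2 WT against 2 libraries of organoids of genotype CAG-CreERT2; Cul4b fn/Y (KOCAG), in which tamoxifen or its active form turns on the recombinase. The villin promoter acts in the gut epithelium, so other cells in a crypt preparation keep the gene, while the CAG promoter acts in nearly every cell type. Whether the WT cultures of the third experiment carried CreERT2 or received the drug is not given in the sources used here. The study's methods give a range of adult ages for the mice of most experiments, and the labels tie no age to these libraries. The study's methods call the libraries of a group biological replicates without naming separate mice or cultures, so p-values measure the spread between libraries.

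Ribosomes are made in the nucleolus, where RNA polymerase I transcribes a long precursor of the ribosomal RNAs. Particles that carry box C/D and box H/ACA RNAs guide its methylation and pseudouridylation, and large assemblies such as the small-subunit processome cleave and fold it together with ribosomal proteins. The work costs a growing cell much of its energy, and in the crypt it is known to be high in the dividing stem and progenitor cells and low in the differentiated cells of the villus. Many of the genes are known targets of Myc, a transcription factor downstream of Wnt signals.

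The promoters of 36 of the 40 genes were found in RefSeq (build GRCm38.p6), and those of Fbl, Npm1, Rrp12 and Bop1 were not. The letters CACGTG, which Myc and Max bind as a pair, were searched in the 250 bases before the start, on both strands (the letters are their own reverse complement). They stood in 2 of the 36 promoters (5.6%), those of Rrn3 and Nop2, against 6.0% of all 32851 promoters in the table. The letters CCGGAAG, a core that ETS factors bind, stood on either strand in 7 of 36 (19.4%), against 6.9% of all promoters. The 2 motifs cannot overlap, and no test was made of these shares. For each of the 36 genes, the promoter nearest to the gene's start in the crypt counts was taken. The 32851 promoters were not reduced to 1 per gene. The promoter taken lay 348 bases from that start for Heatr1, which has CCGGAAG, and 1346 bases for Rrp9, which has neither motif. Below are the promoter of Nhp2, the only member that passed the test in the crypts, and that of Rrn3, with its 2 CACGTG matches in capitals. Both lie on the plus strand. The stretch of Nhp2 (chr11:51619523-51619734) ends 39 bases before the RefSeq start, where an annotated exon begins, and the CCGGAAG match of this promoter lies outside it. The stretch of Rrn3 (chr16:13780449-13780698) holds all 250 bases.
Nhp2: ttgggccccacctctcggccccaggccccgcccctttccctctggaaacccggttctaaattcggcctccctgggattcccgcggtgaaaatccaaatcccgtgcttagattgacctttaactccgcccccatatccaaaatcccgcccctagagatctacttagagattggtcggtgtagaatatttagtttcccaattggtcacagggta
Rrn3: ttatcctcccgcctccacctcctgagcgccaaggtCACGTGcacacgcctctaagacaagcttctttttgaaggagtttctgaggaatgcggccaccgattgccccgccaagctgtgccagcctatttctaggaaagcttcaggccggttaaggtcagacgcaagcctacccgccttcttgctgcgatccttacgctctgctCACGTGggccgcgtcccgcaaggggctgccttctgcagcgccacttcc

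Levels are given as CPM, a unit that scales each library's counts to the same total, after TMM, which evens out differences in composition. Depth ran from 7348191 to 16881395 counts per library, so that 3 counts, taken as the smallest level that can be read, came to 0.178 to 0.408 CPM (counting error only), far below every member but Rrp12, Rrp1b and Rrp9 in a few crypt libraries. Cul4b itself was at 31.6 to 38.2 CPM in WT crypts and 0.846 to 2.2 in KOIEC crypts. In the organoids it stood at 73.1 and 83.1 CPM against 1.69 and 1.75 (KOIEC), and at 69.9 and 72.7 against 3.33 and 5.18 (KOCAG), so every library was on the side of its label. The crypt libraries differed in mitochondrial ribosomal RNA. The sum of mt-Rnr1 and mt-Rnr2 was 18.9 to 25.25 CPM in 4 libraries (WT 1 and KO 1, 2 and 3), 834 and 1078 in WT 4 and KO 4, and 2840 and 2873 in WT 2 and WT 3, against 920 to 2467 in the organoids. Crypt libraries also held cells without Cre, with lymphocyte markers at 22.7 to 389 CPM in sum, against at most 0.767 CPM in any organoid library. Fewer cells of a type and less RNA per cell cannot be told apart in such bulk samples.

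In the crypts, most of the 40 genes were on the low side in KOIEC libraries. The log2 fold change was below 0 in 38 of 40, against 51.1% of the 13427 genes tested, and its median was -0.37, against -0.011 over all genes. Heatr1 (0.0083) and Utp20 (0.00071) were the 2 genes above 0. With an adjusted p under 0.05 in edgeR's quasi-likelihood test (Benjamini-Hochberg over all genes tested), 1 of 40 was called, Nhp2, and it fell. Of all genes tested, 6.96% were called, 2.66% lower and 4.3% higher. At an unadjusted p under 0.05, 21 of 40 members were lower, against 14.6% of all genes, and 0 were higher, against 17.4%. The 2 groups of libraries did not overlap for 2 of 40 genes, Nhp2 and Noc4l, against 8.78% of all genes with KOIEC below WT, and for none was KOIEC above WT (8.75% of all genes).

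The KOIEC crypt libraries did not move alike. The median deviation of the 40 genes from their WT means (log2 of CPM + 0.5) was 0.0031 in KO 1, -0.37 in KO 2, -0.69 in KO 3 and -0.46 in KO 4, while the WT libraries lay at -0.066, 0.088, 0.15 and -0.12. KO 1 was thus inside the WT range, and the other 3 were below every WT library. The summed level of the 40 genes gave the same order, with 4291 CPM in KO 1, 3297 in KO 2, 2654 in KO 3 and 2987 in KO 4, against 3892 to 4838 in WT. The number of called genes depended on single libraries. It was 23 without KO 1 (18% of all genes called in that fit, in either direction), 5 without WT 4 (13.6%), 2 without KO 4 (3.75%), and 0 without any one of WT 1, WT 2, WT 3, KO 2 or KO 3 (0.0145% to 0.147%). The median stayed between -0.52 and -0.28 whichever library was left out.

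Markers of cell states moved with these values, and their part in the result was not tested. All 10 stem cell markers had a log2 fold change below 0 (3 called), and their sum was 2266 to 3314 CPM in WT and 1505 to 2326 in KOIEC. All 10 cycling markers were below 0 as well (2 called), with sums of 1651 to 2102 CPM in WT and 1222 to 1994 in KOIEC. The 10 enterocyte markers were all above 0 (1 called), with sums of 2871 to 10900 and 9666 to 20360 CPM. Markers of cells outside the epithelium differed too, with none called by edgeR and 2 lymphocyte, 3 myeloid and 1 mesenchyme marker at an unadjusted p under 0.05. All 7 lymphocyte markers were above 0 (median 1.34), with sums of 22.7 to 117 CPM in WT and 55.3 to 389 in KOIEC. The 4 of 6 myeloid markers and the 3 of 8 mesenchyme markers that could be tested were all below 0, and their sums did not overlap, with 27.9 to 40.7 against 16.7 to 27.2 CPM (myeloid) and 13.2 to 17.5 against 7.28 to 10.2 CPM (mesenchyme). The organoids, which are epithelial cultures, had sums of 8.57 to 20.4 CPM (myeloid) and 7.88 to 24.7 CPM (mesenchyme). These 2 sums thus do not measure cells outside the epithelium alone. KO 3, the library with the lowest members, also had the lowest stem and cycling sums and the highest lymphocyte sum (389 CPM), whereas the cycling sum of KO 1 was 1994 CPM, inside the WT range.

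In the KOIEC organoids, all 40 genes had a log2 fold change below 0 (51.2% of all 13938 genes tested), with a median of -0.43 against -0.010. None was called by edgeR, and 1 of 13938 genes was (0.00717%), Cul4b itself. At an unadjusted p under 0.05, 1 member was lower (Nop10), against 2.07% of all genes, and 0 were higher (2.6%). DESeq2 called none. The adjusted p of the members ran from 0.856 to 0.994. KOIEC lay below both WT cultures without overlap for 13 of 40 genes, against 19.4% of all genes.

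The low values were mainly those of 1 culture. In KO 2, all 40 genes were below both WT cultures, with a median deviation of -1.10, whereas KO 1 lay at -0.0069, with 21 genes below the WT mean and 13 below both WT cultures. The summed level of the 40 genes was 5377 and 5010 CPM in WT, 5257 in KO 1 and 2417 in KO 2. Without KO 2, the median log2 fold change was -0.0063 and no member was called. Without KO 1, it was -1.12 and 35 of 40 were called lower (15.8% of all genes called in either direction), in a fit that assumes that the single KO culture varies like the WT cultures. KO 2 stood apart in cell markers as well. Its sum was 715 CPM for the cycling markers (1845 to 1988 in the other 3 cultures) and 7024 CPM for the goblet markers (1778 to 2090). For the stem markers it was 654 CPM, against 2378 in KO 1 and 3669 and 5133 in WT. All 10 stem markers were below both WT cultures in both KOIEC cultures, and none was called. The part of these differences in the result was not tested.

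In the KOCAG organoids, the 40 genes had no common direction. Of them, 23 had a log2 fold change below 0 (49.9% of all genes) and 17 above, with a median of -0.051 against 0.0012 over the 13598 genes tested. Here 4 members were called, in an experiment in which 31.5% of all genes were (13.4% lower and 18.1% higher). Npm1 fell, and Bop1, Bysl and Noc4l rose. Without overlap, 10 genes were lower and 11 higher in KOCAG, against 34.3% and 35.4% of all genes. At an unadjusted p under 0.05, 3 were lower (19.3% of all genes) and 7 higher (23.7%). The median deviation was -0.14 in KO 1 and 0.075 in KO 2, with the 2 WT cultures at 0.0060 and -0.0060. The number of called members was 2 without WT 1 (Bop1 and Bysl; 19.8% of all genes called in that fit), 10 without KO 1 (29.1%) and 14 without KO 2 (36.8%), so it moved with each of these cultures. The median was -0.15 without KO 2 and 0.057 without KO 1, on either side of 0. Of the 8 Paneth markers, 6 had a log2 fold change below 0 in the crypts and 8 in the KOIEC organoids, none of them called. Of the 7 enteroendocrine markers, 5 were below 0 in the crypts and 1 in the KOIEC organoids, none called. In the KOCAG organoids, 9 of 10 enterocyte, 7 of 7 goblet, 7 of 7 enteroendocrine and 7 of 8 Paneth markers were called higher. Of the 10 stem markers, 4 were called lower and 1 higher, with sums of 4926 and 5572 CPM in WT and 3950 and 4554 in KOCAG, and of the 10 cycling markers 3 were called lower and none higher. The cycling sum was 2000 and 2015 CPM in WT and 1429 and 1793 in KOCAG, and the part of these markers in the result was not tested.

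**Figure D1:**
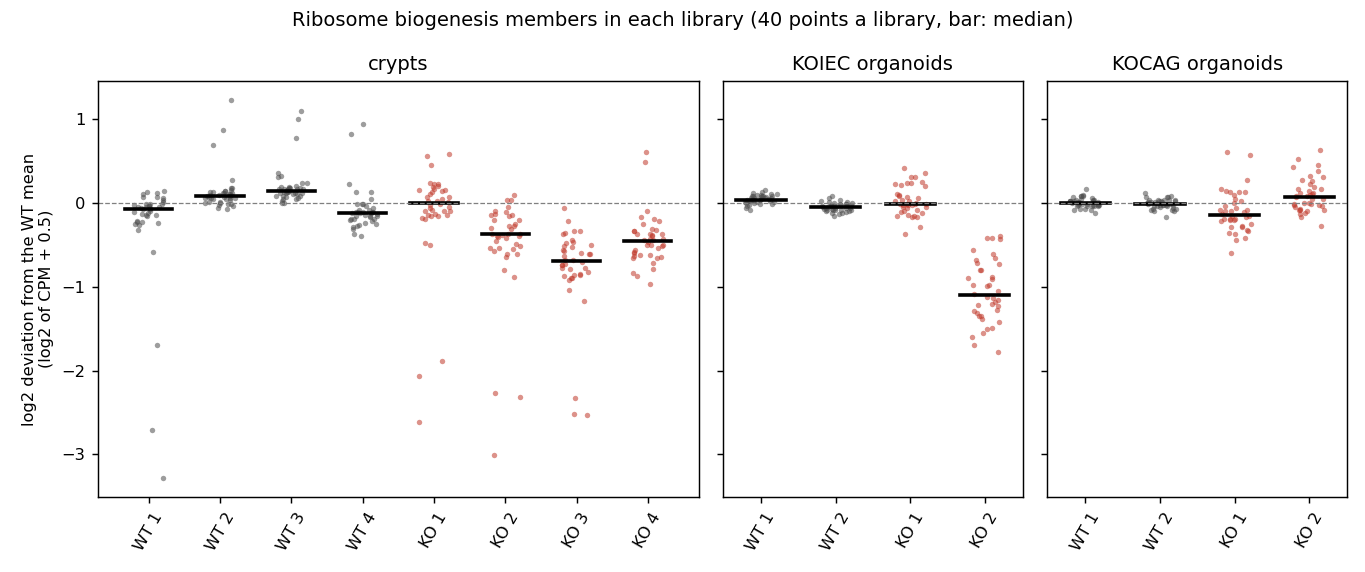
Deviation of each of the 40 genes from its WT mean (y axis, log2 of CPM + 0.5) in every library (x axis), by experiment; 1 point is 1 gene and the bar is the median. The bars of crypt KO 2, KO 3 and KO 4 and of KOIEC organoid KO 2 (-0.37, -0.69, -0.46 and -1.10) lie below those of all WT libraries of their experiment, and the few points far below the others in crypt WT 1, KO 1, KO 2 and KO 3 are Rrp12, Rrp1b and Rrp9.

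The 4 genes of RNA polymerase I had the smallest median shift of the 7 groups in the crypts (-0.15), and none was called in any experiment. Ubtf, which binds the ribosomal DNA and holds it open, was at 179, 177, 171 and 159 CPM in WT crypts and at 170, 141, 135 and 131 CPM in KO 1 to KO 4. Its log2 fold change was -0.25 (SE 0.11, adjusted p = 0.143, edgeR). KO 1 lay among the WT libraries and the other 3 below them. Rrn3, the initiation factor that brings polymerase I to the promoter, gave -0.0022 (SE 0.13, adjusted p = 0.992), with 40.8 to 49.6 CPM in WT and 53.4, 48.8, 43.7 and 36.8 CPM in KO 1 to KO 4, and the KOIEC range took in the whole WT range. The KOIEC organoids had Ubtf at 161 and 159 CPM in WT and 154 and 108 in KOIEC (log2 fold change -0.29, SE 0.22), and Rrn3 at 54.1 and 46.4 against 62.3 and 37.5 CPM (-0.010, SE 0.29). The KOCAG experiment had Ubtf at 217 and 209 against 189 and 201 CPM (-0.13, SE 0.082). Rrn3 stood at 44.5 and 43.4 CPM in WT and 49.6 and 57.5 in KOCAG (0.29, SE 0.11, adjusted p = 0.0610), higher in both cultures. Polr1a and Polr1b, the 2 largest subunits of the polymerase, gave -0.046 and -0.33 in the crypts.

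The 3 proteins of the box C/D particles had log2 fold changes close to each other in the crypts, between -0.61 and -0.48. Fbl, the methyltransferase fibrillarin, was at 223, 231, 224 and 158 CPM in WT crypts and at 189, 135, 109 and 115 CPM in KO 1 to KO 4. The log2 fold change was -0.61 (SE 0.19, adjusted p = 0.0718). WT 4 and KO 1 overlapped, and the other libraries were apart. For Nop56, a core protein of the same particles, the values were 151, 156, 192 and 129 CPM against 141, 106, 75.3 and 107 CPM, with a log2 fold change of -0.55 (SE 0.19, adjusted p = 0.0855), and again KO 1 alone reached the WT range. Nop58, its partner, gave -0.48. All 3 had an unadjusted p under 0.05 in the crypts and none passed the adjustment. The KOIEC organoids had Fbl at 166 and 146 CPM in WT and at 146 and 67.0 in KOIEC (-0.55, SE 0.39). Nop56 was at 194 and 189 against 178 and 67.6 CPM (-0.64, SE 0.46), the second culture carrying the difference. Under CAG-CreERT2, Fbl stood at 173 and 179 CPM in WT and at 136 and 161 in KOCAG (-0.24, SE 0.095, adjusted p = 0.0790), lower in both cultures. Nop56 stood at 199 and 208 against 185 and 228 CPM there (0.027, SE 0.10), with the KOCAG cultures on either side of WT.

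Nhp2, a protein of the box H/ACA particles, which guide pseudouridylation and also form part of telomerase, was the 1 member called in the crypts. Its levels were 129, 145, 152 and 128 CPM in WT and 99.6, 74.5, 61.0 and 102 CPM in KO 1 to KO 4 (mean 139 ± 11.96 against 84.3 ± 19.9, SD, n = 4). Every KOIEC library was below every WT library. The log2 fold change was -0.72 (SE 0.16, adjusted p = 0.0450, edgeR), 0.608 times the WT level. The gene (ENSMUSG00000001056, chromosome 11, 51619735 to 51623714, plus strand) shares 3.8% of its exon bases with Rmnd5b on the other strand. The call was close to the threshold. It was lost without any one of WT 1, WT 2, WT 3, KO 2 or KO 3 (adjusted p 0.0907 to 0.132), and the log2 fold change stayed between -0.82 and -0.56 over 17 alternatives. Organoids of KOIEC mice and their WT had Nhp2 at 105 and 100 CPM in WT and at 98.9 and 42.0 in KOIEC (-0.54, SE 0.41, adjusted p = 0.856). KOCAG organoids gave 136 and 135 against 135 and 155 CPM (0.10, SE 0.089, adjusted p = 0.402), and the groups overlapped.

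Nop10, the smallest protein of these particles, was at 76.9, 85.4, 87.6 and 82.5 CPM in WT crypts and at 80.6, 63.3, 54.9 and 72.5 CPM in KO 1 to KO 4 (-0.29, SE 0.12, adjusted p = 0.132), with KO 1 inside the WT range. In the KOIEC organoids it was at 57.3 and 59.9 CPM in WT and at 45.3 and 36.4 in KOIEC. Both KOIEC cultures were below both WT cultures, and the log2 fold change of -0.52 (SE 0.18) had an unadjusted p of 0.0382 and an adjusted p of 0.856. The KOCAG cultures were at 81.0 and 79.6 CPM, between the WT cultures at 97.3 and 76.8. Gar1 and Dkc1, the pseudouridine synthase itself, gave -0.44 and -0.49 in the crypts and were not called.

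Npm1, nucleophosmin, a chaperone of the granular part of the nucleolus, had the highest level per length of the 40 genes, with 202 RPKM (CPM per kilobase of transcript) in WT crypts, against 2.35 RPKM for Wdr12, the lowest. It was at 511, 576, 590 and 481 CPM in WT crypts and at 482, 352, 295 and 347 CPM in KO 1 to KO 4. KO 1 lay just above the lowest WT library, and the other 3 were well below. The log2 fold change was -0.55 (SE 0.16, adjusted p = 0.0605). The KOIEC organoids had Npm1 at 837 and 776 CPM in WT and at 726 and 329 in KOIEC (-0.61, SE 0.39, adjusted p = 0.856), both below WT and the second much further. Under CAG-CreERT2, it was at 1060 and 1002 CPM in WT and at 683 and 851 in KOCAG, and it fell by 0.43 on the log2 scale (SE 0.11, adjusted p = 0.0168). Npm1 was thus on the low side in all 3 experiments, and called in 1. Its call in the KOCAG organoids was lost without WT 1 (adjusted p = 0.0511), and its adjusted p there ran from 2.51e-05 to 0.429 over 11 alternatives. The gene (ENSMUSG00000057113) lies on chromosome 11, 33152287 to 33163206, minus strand.

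Ncl, nucleolin, which binds the precursor RNA and the ribosomal DNA, was at 773, 867, 919 and 684 CPM in WT crypts and at 795, 625, 482 and 511 CPM in KO 1 to KO 4 (-0.43, SE 0.18, adjusted p = 0.134). KO 1 lay inside the WT range and the other 3 below it. Its levels in the KOIEC experiment were 965 and 858 CPM in WT and 971 and 389 in KOIEC (-0.42, SE 0.45), so that the cultures of the same genotype were further apart than the groups. The KOCAG organoids gave 1117 and 1089 against 882 and 1077 CPM (-0.17, SE 0.11, adjusted p = 0.256). Of the other nucleolar proteins, Nolc1, Mybbp1a and the helicase Ddx21 gave -0.32, -0.24 and -0.17 in the crypts. Under CAG-CreERT2, Nolc1 (0.19) and Ddx21 (0.20) were above 0 without overlap and were not called.

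The small-subunit processome is the assembly that forms on the nascent precursor and makes the early cuts around the small-subunit RNA. Of its 8 genes, 6 had a log2 fold change below 0 in the crypts, with a median of -0.28. Imp3, an RNA-binding subunit, was at 56.9, 48.9, 55.8 and 44.8 CPM in WT crypts and at 46.4, 32.7, 29.8 and 36.9 CPM in KO 1 to KO 4. Only KO 1 among the KOIEC libraries reached above the lowest WT library, and the log2 fold change was -0.50 (SE 0.15, adjusted p = 0.0622). Wdr43 gave -0.26 (SE 0.17, adjusted p = 0.330), with 72.2, 90.2, 95.0 and 82.0 against 94.3, 68.5, 50.5 and 70.7 CPM, KO 1 being as high as WT. Heatr1 and Utp20, the 2 largest proteins of the group, were the members above 0, and for both KO 1 was the highest of all 8 libraries (101 and 96.2 CPM). For KOIEC organoids, Imp3 was at 52.8 and 46.7 CPM in WT and at 44.4 and 37.6 in KOIEC (-0.28, SE 0.18), lower in both. Wdr43 was at 117 and 110 against 113 and 52.2 CPM (-0.46, SE 0.38). With the inducible deletion, Imp3 was at 49.8 and 48.3 against 38.7 and 46.7 CPM (-0.19, SE 0.11), and Wdr43 at 115 and 122 against 97.6 and 118 CPM (-0.13, SE 0.10).

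Noc4l, a processome protein of the Noc family, had differences of opposite sign in 2 experiments. In the crypts it was at 41.2, 49.6, 50.6 and 39.2 CPM in WT and at 39.1, 30.1, 23.9 and 22.6 CPM in KO 1 to KO 4. The groups did not overlap, although KO 1 and WT 4 were almost equal, and the log2 fold change of -0.64 (SE 0.18) had an adjusted p of 0.0569. For KOIEC organoids, it was at 50.5 and 46.7 CPM in WT and at 57.5 and 20.6 in KOIEC, on either side of WT (-0.31, SE 0.49, adjusted p = 0.894). With the inducible deletion it was at 38.3 and 42.8 CPM in WT and at 49.2 and 54.7 in KOCAG. There it rose by 0.36 on the log2 scale (SE 0.11, adjusted p = 0.0282), and the adjusted p was above 0.05 in 5 of 11 alternatives: without WT 1, WT 2 or KO 2 (adjusted p = 0.251, 0.0521 and 0.0855), with DESeq2 (0.127), and with all 16 libraries in 1 fit (0.621). Noc4l (ENSMUSG00000033294) lies on chromosome 5, 110648418 to 110653417, minus strand.

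The late factors of the small subunit, which finish it in the nucleus and the cytoplasm, had a median of -0.31 in the crypts, -0.18 in the KOIEC organoids and 0.21 in the KOCAG organoids, where 4 of 5 were above 0. Bysl, a factor of the late precursor, was at 29.0, 35.1, 34.7 and 29.8 CPM in WT crypts and at 32.7, 28.9, 21.5 and 20.7 CPM in KO 1 to KO 4 (-0.31, SE 0.16, adjusted p = 0.214), with overlap. The KOIEC organoids gave 39.2 and 34.7 CPM in WT and 45.8 and 19.8 in KOIEC (-0.17, SE 0.42), on either side of WT. The WT cultures of the KOCAG experiment were at 30.3 and 30.9 CPM and the KOCAG cultures at 45.7 and 44.1. Bysl rose there by 0.55 (SE 0.11, adjusted p = 0.00331), 1.47 times WT, and both KOCAG cultures were far above both WT cultures. Among 11 alternatives its adjusted p rose above 0.05 in the fit of all 16 libraries (0.323). The gene (ENSMUSG00000023988, chromosome 17, 47599331 to 47611492, minus strand) shares 9.4% of its exon bases with Ccnd3 on the other strand.

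Ltv1 and Nob1 had the highest levels per length of the late factors. Nob1, the nuclease that makes the last cut of the small-subunit RNA, was at 49.9, 52.6, 54.1 and 45.1 CPM in WT crypts and at 46.9, 38.0, 35.1 and 37.3 CPM in KO 1 to KO 4 (-0.36, SE 0.11, adjusted p = 0.0694). KO 1 alone reached the WT range. Ltv1, an export and maturation factor, gave -0.18 (SE 0.13, adjusted p = 0.377), with 40.4, 49.7, 48.2 and 51.7 against 49.7, 40.9, 33.3 and 44.1 CPM and with overlap. For KOIEC organoids, Nob1 was at 59.9 and 56.8 CPM in WT, level with the higher of them in KO 1, and at 43.2 CPM in KO 2 (-0.18, SE 0.21), and Ltv1 at 55.7 and 46.1 against 53.5 and 32.98 CPM (-0.23, SE 0.28). For KOCAG, the pair lay on opposite sides. Nob1 was at 62.6 and 65.7 against 52.7 and 60.6 CPM (-0.17, SE 0.10), and Ltv1 at 59.0 and 55.7 against 62.8 and 69.7 CPM (0.21, SE 0.096), neither of them called.

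The 11 genes of the large subunit had a median of -0.41 in the crypts, -0.58 in the KOIEC organoids and -0.057 in the KOCAG organoids. All 11 were below 0 in the first 2 experiments, and none was called there. Noc2l, of the Noc family, was at 102, 108, 112 and 91.8 CPM in WT crypts and at 113, 86.8, 69.1 and 72.3 CPM in KO 1 to KO 4 (-0.28, SE 0.16, adjusted p = 0.251), KO 1 being the highest of the 8 libraries. For KOIEC organoids, it was at 159 and 163 CPM in WT and at 143 and 71.7 in KOIEC (-0.58, SE 0.35), below WT in both. For KOCAG it was at 165 and 175 against 133 and 167 CPM (-0.18, SE 0.11). Its exons share 20.9% of their bases with Samd11 on the other strand.

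Bop1 forms with Pes1 and Wdr12 a complex that is needed to process the RNA of the large subunit, and of the 3 genes Bop1 alone was called. Bop1 was at 92.6, 95.6, 95.1 and 84.2 CPM in WT crypts and at 93.4, 84.1, 67.3 and 72.6 CPM in KO 1 to KO 4 (-0.21, SE 0.11, adjusted p = 0.228), with overlap. KOIEC organoids gave 118 and 114 CPM in WT and 122 and 86.7 in KOIEC (-0.15, SE 0.21). For KOCAG it was at 72.8 and 72.5 CPM in WT and at 111 and 113 in KOCAG. The 2 cultures of each group were within 2 CPM of each other, and Bop1 rose by 0.63 (SE 0.080, adjusted p = 0.000349), 1.54 times WT. Among 11 alternatives its adjusted p rose above 0.05 in the fit of all 16 libraries (0.0522). Among the 40 genes this was the largest rise in any of the 3 experiments. Pes1 gave -0.16 (SE 0.088, adjusted p = 0.191) and Wdr12 gave 0.019 (SE 0.11, adjusted p = 0.915) in the same cultures, and the differences between the 3 genes were not tested. Bop1 (ENSMUSG00000022557) lies on chromosome 15, 76452996 to 76477269, minus strand, in the crypt and KOCAG tables, and shares 1.7% of its exon bases with another gene.

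**Figure D2:**
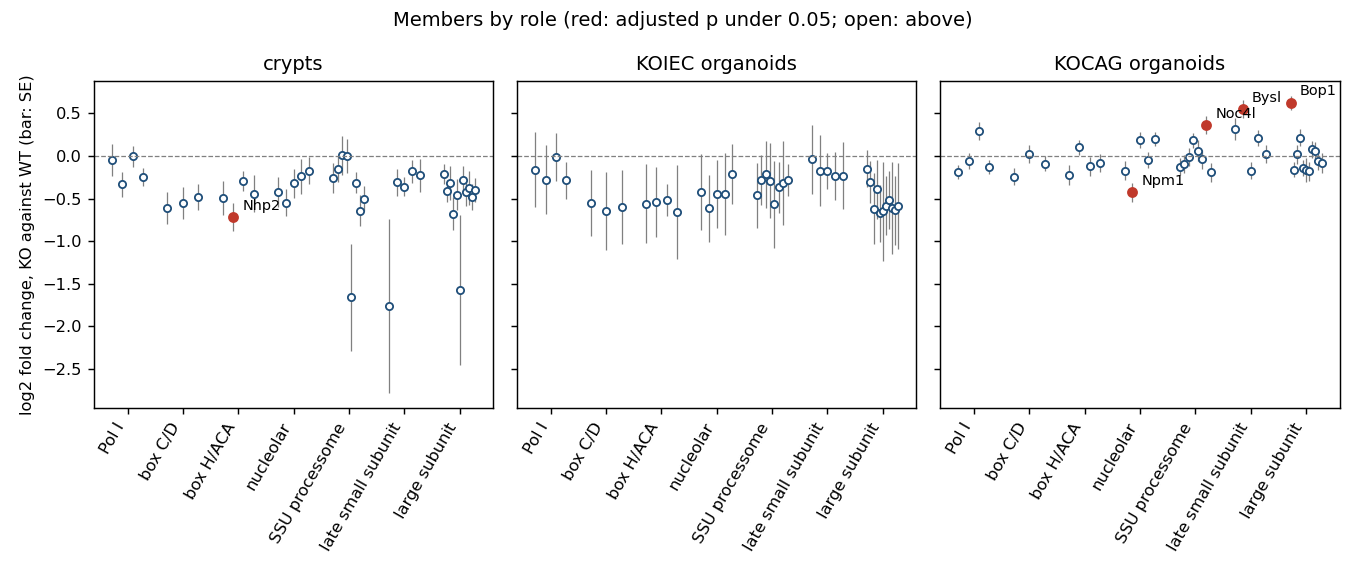
Log2 fold change of KO against WT (y axis, bars are SE) for the 40 genes, grouped by role (x axis) in the 3 experiments; filled red points have an adjusted p under 0.05. Nhp2 (-0.72) is filled in the crypts, no gene is in the KOIEC organoids, and Npm1 (-0.43), Noc4l (0.36), Bysl (0.55) and Bop1 (0.63) are in the KOCAG organoids.

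**Figure D3:**
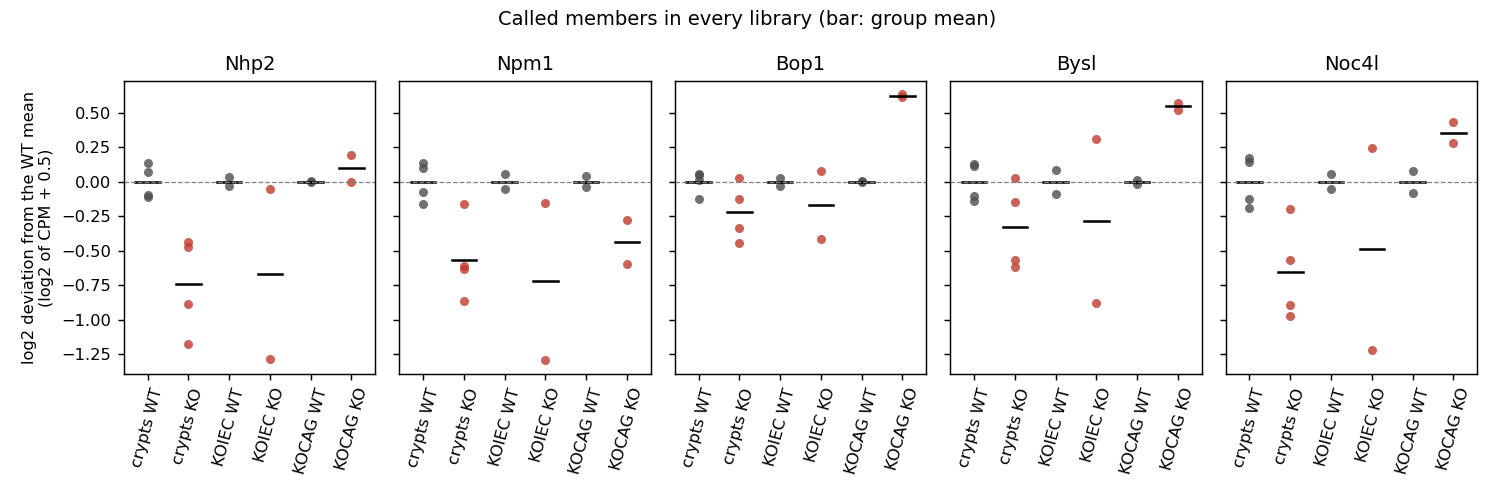
Deviation from the WT mean (y axis, log2 of CPM + 0.5) of the 5 called genes in every library, by experiment and genotype (x axis), with bars for the group means. Bop1 and Bysl lie above WT in the 2 KOCAG cultures and not in crypts or KOIEC organoids as groups, and Npm1 lies below WT in the 2 KOCAG cultures.

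The largest fold changes in the crypts belonged to 3 genes whose libraries did not divide by genotype. They are outside the rule for genes described with all values, and were chosen after their values were seen. Rrp12, an export factor of the small subunit, was at 1.61, 47.8, 43.7 and 39.2 CPM in WT 1 to WT 4 and at 2.85, 2.06, 3.07 and 31.0 CPM in KO 1 to KO 4 (log2 fold change -1.76, SE 1.02, adjusted p = 0.260). WT 1 was as low as KO 1, KO 2 and KO 3, and KO 4 was nearly as high as the other WT libraries. Rrp1b, of the large subunit, was at 1.79, 26.9, 29.5 and 26.1 against 3.06, 2.51, 2.12 and 20.5 CPM (-1.57, SE 0.88, adjusted p = 0.247). Rrp9, the processome protein that binds the U3 small nucleolar RNA, was at 8.13, 44.8, 47.4 and 32.3 against 7.07, 5.33, 5.08 and 24.4 CPM (-1.66, SE 0.62, adjusted p = 0.108). The same 4 libraries, WT 1, KO 1, KO 2 and KO 3, were low for all 3 genes.

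These are the 4 libraries with under 100 CPM of mitochondrial ribosomal RNA. With genotype in the fit, they differed from the other 4 crypt libraries at an adjusted p under 0.05 in 18 of 14305 genes (0.126%), all 18 lower. Rrp12 (log2 difference -4.04, SE 0.27, adjusted p = 0.000344), Rrp1b (-3.40, SE 0.24, adjusted p = 0.000435) and Rrp9 (-2.20, SE 0.20, adjusted p = 0.00289) were among them, next to mt-Rnr1 and mt-Rnr2, which set the classes. Another 6 were ribosome biogenesis genes outside the 40: Rrp1, Rrp7a, Rrp8, Rrp15, Rrp36 and Exosc5. The rest, outside both sets, were Hsp90aa1, Rpl12, Dis3, mt-Tl1, Gm10275, Gm26917 and Gm9396. The crypt table describes 7 genes with a text that begins "ribosomal RNA processing" (Rrp1, Rrp1b, Rrp7a, Rrp8, Rrp12, Rrp15 and Rrp36), and all 7 were called in this contrast. What sets these libraries apart was not tested. In the organoids, whose libraries all had over 900 CPM of mitochondrial ribosomal RNA, the 3 members were above the levels of these 4 libraries. Rrp12 ran there from 24.9 to 55.4 CPM, Rrp1b from 13.4 to 65.5 and Rrp9 from 12.95 to 47.3, with the lowest value of each in the KOIEC culture KO 2. Of the other members, Nop2, a methyltransferase of the large-subunit RNA, came nearest to the pattern, with 41.9 CPM in WT 1, 69.0 to 76.3 in the other WT libraries, and 44.3, 36.0, 33.5 and 47.7 CPM in KO 1 to KO 4 (log2 difference between classes -0.56, SE 0.15, adjusted p = 0.897).

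**Figure D4:**
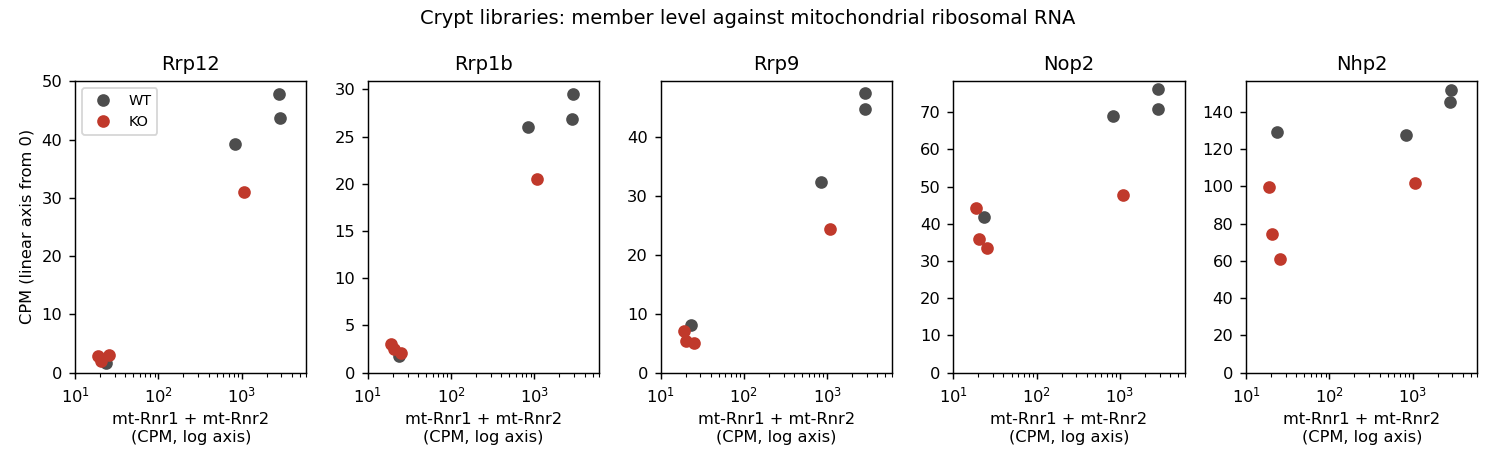
CPM of 5 members (y axes, linear from 0) against the summed CPM of mt-Rnr1 and mt-Rnr2 (x axis, log scale) in the 8 crypt libraries, WT grey and KOIEC red. Rrp12, Rrp1b and Rrp9 are at 1.61 to 8.13 CPM in the 4 libraries on the left, WT 1 among them, and at 20.5 to 47.8 CPM in the 4 on the right, whereas for Nhp2 the WT library on the left (129 CPM) lies among the other WT libraries.

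Low mitochondrial ribosomal RNA was shared by 3 of 4 KOIEC but 1 of 4 WT crypt libraries, so the values were also read within classes. Among the 4 low libraries (WT 1 against KO 1, KO 2 and KO 3), 30 of the 40 genes were lower in KOIEC, with a median of -0.22, against 51.3% of all genes and a median of -0.015. Between WT 4 and KO 4, all 40 were lower, with a median of -0.34 against 49.7% and 0.0019. Each of these rests on 1 WT library, so no test was made. Without Rrp9, Rrp12 and Rrp1b, 35 of the remaining 37 genes were below 0 in the crypts, with a median of -0.33. With the class as a covariate the median was -0.28, no member was called (Nhp2 -0.56, adjusted p = 0.228), and 2 of 14305 genes were called in all.

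Whether the effect of the deletion differed between experiments was tested as an interaction in a fit of all 16 libraries over 15585 genes. No member passed in any of the 3 contrasts by edgeR. The fit takes a shared estimate of spread for each gene from all 16 libraries. In it, 3.06% of all genes were called between KOCAG and WT organoids, against 31.5% in that experiment alone. A difference that was not called is therefore not shown to be absent. Between crypts and KOCAG organoids, 58 genes were called in all (0.372%; 0.237% below 0 and 0.135% above), 38 of 40 members had a difference below 0 (median -0.30), and 5 had an unadjusted p under 0.05. The smallest adjusted p belonged to Bop1 (difference -0.83, SE 0.19, adjusted p = 0.0807), and DESeq2 called 1 of 40 (Bop1; 2.56% of all genes). By edgeR, the number of called members in this contrast moved when either of the KOIEC organoid cultures KO 1 and KO 2 was left out. These cultures enter the contrast through the shared estimate of spread, the choice of genes tested and the scaling. Noc4l (-0.99, SE 0.42, adjusted p = 0.302), Bysl (-0.85, SE 0.36, adjusted p = 0.293) and Nhp2 (-0.81, SE 0.36, adjusted p = 0.329) had differences of -0.81 or beyond with wider errors. Between KOIEC and KOCAG organoids, 60 genes were called in all (0.385%; 0.199% below 0 and 0.186% above), and 38 of 40 members were below 0 (median -0.39, 1 with an unadjusted p under 0.05, none called by DESeq2). Without the KOIEC culture KO 1, 9 members were called in that contrast, all below 0 (4.05% of all genes called in either direction). Between crypts and KOIEC organoids, 1 gene was called in all (0.00642%), 15 of 40 members were below 0, the median was 0.058, and none had an unadjusted p under 0.05 or was called by DESeq2.

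A further 132 genes of the same pathway, in 5 lists, were read beside the 40. They include Rrp1, Rrp7a, Rrp8, Rrp15, Rrp36 and Exosc5, which were low in the crypt libraries with low mitochondrial ribosomal RNA, WT 1 among them. In the crypts, 129 were tested, and 118 had a log2 fold change below 0 (median -0.23), against 51.1% of all genes. Here 6 were called lower (2.66% of all genes) and 0 higher (4.3%). The largest of the 6 were Cd3eap, a subunit of polymerase I (-0.77, SE 0.19, adjusted p = 0.0488), Nol12, of the large-subunit list (-0.69, SE 0.14, adjusted p = 0.0413), and Znhit3, an assembly factor of box C/D particles (-0.59, SE 0.14, adjusted p = 0.0467). For Nol12 the WT libraries ran from 24.5 to 35.0 CPM and the KOIEC libraries from 16.7 to 22.5. By list, 10 of 12 polymerase I genes, 7 of 8 genes of small nucleolar particles, 43 of 45 of the small subunit, 43 of 49 of the large subunit and 15 of 15 of the exosome and of RNases P and MRP were below 0. In the KOIEC organoids, 117 of 130 were below 0 (51.2% of all genes), with a median of -0.27. By edgeR, none was called (0.00717% of all genes) or had an unadjusted p under 0.05 (2.07% lower and 2.6% higher).

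In the KOCAG organoids, 59 of 129 were below 0 (49.9% of all genes), with a median of 0.010. Of them, 4 were called lower (13.4% of all genes) and 8 higher (18.1%). Nop53 (-0.61, SE 0.092, adjusted p = 0.000855) and Nsa2 (-0.55, SE 0.084, adjusted p = 0.000929), both assembly factors of the large subunit, and Twistnb, a subunit of polymerase I (-0.48, SE 0.13, adjusted p = 0.0187), had the largest falls. Nop53 was among the 6 lower in the crypts too (-0.49). Eif6, which keeps the new large subunit from joining the small one (0.59, SE 0.084, adjusted p = 0.000592), and Sbds, which releases Eif6 from it (0.55, SE 0.091, adjusted p = 0.00139), rose together with Pop5 of RNases P and MRP (0.51, SE 0.12, adjusted p = 0.00934). Eif6 was at 177 and 175 CPM in WT and at 276 and 255 in KOCAG.

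Myc itself was at 71.5, 73.6, 70.1 and 52.2 CPM in WT crypts and at 64.6, 75.8, 36.3 and 42.1 CPM in KO 1 to KO 4 (-0.29, SE 0.23, adjusted p = 0.401), with overlap. KO 2 had the highest Myc of the 8 crypt libraries while its 40 genes were at -0.37. In the KOIEC organoids Myc was at 116 and 147 CPM in WT and at 87.4 and 33.4 in KOIEC (-1.12, SE 0.47, adjusted p = 0.856), lowest in the culture whose 40 genes were lowest. In the KOCAG organoids it was at 202 and 190 against 154 and 156 CPM and fell by 0.34 (SE 0.081, adjusted p = 0.0105). These are values of single libraries, and the part of Myc in the levels of the 40 genes was not tested. Of the 10 genes of the Myc network (Myc included), the antagonist Mxd3 (-0.92, SE 0.21, adjusted p = 0.0455) fell and Mxi1 (0.85, SE 0.19, adjusted p = 0.0450) rose in the crypts. In the KOCAG organoids Mxd3 (-0.82) and Mxi1 (-0.74, adjusted p = 0.000461) fell, and Mxd1 (1.24, SE 0.13, adjusted p = 9.85e-05), Mlx (0.70, SE 0.10, adjusted p = 0.000848) and Max (0.37, SE 0.091, adjusted p = 0.0126) rose. Mxi1 was thus called in opposite directions in the 2 experiments, and the interaction fit was read for the 40 genes only.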

How the data were processed

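Per the labels, RNA of crypts and organoids was sequenced, and the submitters' processing notes name HISAT2 2.0.5 and featureCounts 1.5.0-p3. What the authors deposited are unnormalized read counts for each gene, in 1 table per experiment. Strand use, genome build and annotation are not given in the sources used here, and 35 of the 40 genes have the positions of GENCODE M21 (GRCm38). For 20 of them exon bases are shared with another gene, over 10% for Tsr1 (32.3%) and Noc2l, so these 2 counts are uncertain. Groups came from the labels, and the study's methods call the libraries biological replicates.

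Each experiment was fitted alone with edgeR 4.0.16 in R 4.3.3: filterByExpr, TMM, the quasi-likelihood test, Benjamini-Hochberg adjustment over all genes tested, and a call at an adjusted p under 0.05. SE is the log2 fold change over the square root of F. Alternatives were RLE or library-size scaling, other filters, DESeq2 1.42.0, a 2-fold threshold, all 16 libraries in 1 fit, a replicate block, each library left out, and the class of mitochondrial ribosomal RNA (bounds 100 and 2000 CPM). Same-numbered WT and KO libraries did not deviate together in every crypt pair (r from -0.40 to 0.43), so no block was used. The scripts were tested on simulated data. Described with all values were the 2 members of each role group with the highest level per length, the called members and, of the other lists, the 3 largest called genes in each direction. The members, gene lists and classes were chosen with earlier results of these data known.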

Additional observations from a re-analysis of the deposited data

Results flagged for a closer look

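In groups of 4 crypt libraries, 7 values of 6 members stood further from the other 3 than Dixon's test allows at 95% (86 groups were tested, and chance flags about 1 in 20). KO 4 was the highest of the KOIEC libraries for Rrp9 (24.4 CPM, others 5.08 to 7.07), Rrp12 (31.0 CPM, others 2.06 to 3.07) and Rrp1b (20.5 CPM, others 2.12 to 3.06), and WT 1 was the lowest WT library for Rrp1b (1.79 CPM, others 26.1 to 29.5). For these 3 genes the split follows the classes of mitochondrial ribosomal RNA. The other values were Fbl in WT 4 (158 CPM, others 223 to 231), Nolc1 in WT 1 (103 CPM, others 125 to 130) and Mrto4 in WT 3 (47.8 CPM, others 39.4 to 40.7).

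For 5 members, every KO library was below the WT mean in 1 experiment and above it in another. None of these differences passed the interaction test of edgeR. Between crypts and KOCAG organoids, the log2 differences were -0.81 for Nhp2 (adjusted p = 0.329), -0.99 for Noc4l (adjusted p = 0.302), -2.06 for Rrp12 (adjusted p = 0.564), -0.88 for Nop2 (adjusted p = 0.280) and -0.48 for Nip7 (adjusted p = 0.532). Rrp12 in the crypts followed the classes of mitochondrial ribosomal RNA (WT 1 at 1.61 CPM, KO 4 at 31.0). Within the low class its log2 difference of KOIEC from WT was 0.65. Between KOIEC and KOCAG organoids, the log2 differences were -0.63 for Nhp2 (adjusted p = 0.626) and -0.58 for Nip7 (adjusted p = 0.603).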

How the results depend on the processing

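In the crypts, the number of called members was 1 (6.96% of all genes called). It was 7 without a filter on low counts (4.91%) and 2 with at least 10 counts in every library (9.23%). With DESeq2 it was 11 (18.5%), and with all 16 libraries in 1 fit it was 2 (10.6%). A 2-fold threshold (1.79%) and the replicate block (0.028%) each gave 0. Fits that took in the mitochondrial classes, in 3 levels (0.014%) or 2 (0.021%, chosen after seeing the data), gave 0 as well. Hardly any gene was called in the block and class fits, so their counts of 0 are not particular to the members. The number of called members ran from 0 to 23 with a library left out. In the KOIEC organoids it was 0, and 0 to 35 with a culture left out, the median going from -1.12 to -0.0063. In the KOCAG organoids it was 4, but 0 with a 2-fold threshold or all 16 libraries in 1 fit, 7 with the replicate block (36.3%), and 2 to 14 with a culture left out. The number of members whose effect differed was 0 in each contrast, but 1 between crypts and KOCAG organoids with DESeq2, 0 to 1 there and 0 to 9 between KOIEC and KOCAG organoids with a library left out. The median in the crypts stayed below 0 in every alternative (-0.52 to -0.22). No called gene changed sign. The cause of these shifts was not tested. Replicate numbers were not shown to pair the libraries (KOIEC organoids r = 0.342, KOCAG organoids r = 0.0669), and the block changed no other count by over 1.5 times. Groups held 2 or 4 libraries, and Rrp12 and Rrp1b were the members with under 30 counts in any library.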
